A study of Mus musculus with 14 samples.

Results

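TRIM and PARP family transcripts were followed in peritoneal cells of mice given lipopolysaccharide (LPS) with or without the compound SMD. Members were all genes whose only symbol in the array annotation was Trim or Parp followed by a number. A gene was tested where the mean of log2(signal + 16) over the 14 arrays was above 5.64, and its probe set with the highest mean stood for it. The array carried 69 such genes with 132 probe sets, and 52 were tested, 41 TRIM and 11 PARP genes, of 12817 genes tested in all. Of the 52, 16 belong to a list of genes known to respond to interferon or to act in antiviral sensing, and 36 do not. The other 17 genes, all outside that list, lay below the filter.

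The mice were female C57Bl/6 x C3H F1 animals aged 12 to 16 weeks, housed 5 to a cage. The 14 arrays fell into 5 groups. There were 2 naive arrays, from mice with neither LPS nor SMD, and 3 arrays from mice challenged with 60 µg of LPS in a tail vein. LPS, a glycolipid from the outer membrane of Gram-negative bacteria, here came from Salmonella minnesota. For each SMD dose of 100, 200 and 300 mg/kg there were 3 arrays, from mice that inhaled it, applied to the nares in 50 µl under halothane, 30 min before the same LPS challenge, with cells taken 2.0 h after LPS. The labels do not spell out SMD, give no harvest time for the LPS group, and do not say whether naive or LPS mice received a vehicle. The titles call each LPS and SMD array a biological replicate and each naive array only a replicate. They do not say whether an array stands for 1 mouse or a pool, so the p-values speak for the spread of these arrays alone. For the naive arrays part or all of that spread may be technical.

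TRIM proteins typically have an N-terminal RING domain, B-box zinc fingers and a coiled coil, though some lack the RING domain, and most work as ubiquitin ligases. PARP proteins transfer ADP-ribose from NAD to other proteins, as long chains in the DNA-break sensors Parp1 and Parp2 and as single units in most others. LPS acts on macrophages through Toll-like receptor signalling, which switches on inflammatory genes and, through interferon beta, a second group of genes whose promoters carry an interferon-stimulated response element (ISRE). Several TRIM and PARP genes belong to that second group.

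The 16 interferon-linked genes were Trim5, Trim6, Trim12a, Trim12c, Trim14, Trim21, Trim25, Trim26, Trim30a, Trim30d, Trim34a, Trim56, Parp9, Parp11, Parp12 and Parp14. Among these, Trim6, Trim34a, Trim5, Trim12a, Trim12c, Trim30a and Trim30d are near neighbours on chromosome 7, and Parp14 and Parp9 are near neighbours on chromosome 16. Trim30a and Trim30d, and likewise Trim12a and Trim12c, are close paralogues whose probes may detect both, so their separate values are uncertain.

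All arrays were scaled by the authors to the same trimmed mean signal of 500, and their median signals ran from 65.1 to 84.8. The 3'/5' signal ratio of beta-actin controls on the array, which reads RNA integrity and labelling, was 2.84 and 3.05 on the naive arrays, 1.92 to 5.86 after LPS, 2.72 to 11.6 at 100 mg/kg, 9.03 to 10.7 at 200 mg/kg and 6.99 to 18.9 at 300 mg/kg. This ratio moved with the dose, and its part in the results was not tested beyond a fit with the ratio as a covariate, whose lost calls are given with each comparison that involved SMD. Markers of the labelled cell type, macrophages, were present in every group. The summed signal of 8 of them (Adgre1, Csf1r, Cd68, Lyz2, Itgam, Cd14, Icam2 and Timd4) was 129292 to 138106 in naive cells, 156246 to 163453 after LPS and 151655 to 159198 at 300 mg/kg. Single markers moved within that sum. Its higher value after LPS rests on Cd14, with 43632, 42761 and 46209 against 8195 and 7997 in naive cells. Icam2 went the other way, with 7615, 4384 and 6371 against 14071 and 13057. At 300 mg/kg against LPS, Timd4 was higher (0.44) and Cd14 (-0.41) and Itgam (-1.61) were lower, Itgam with 3769, 863 and 2308 against 1033, 526 and 466, which overlap. Markers of other cells were present too. The summed signal of 6 neutrophil markers was 2621 to 3395, 19735 to 22388 and 35507 to 45473 in those 3 groups, that of 5 B cell markers 39900 to 45166, 23135 to 23537 and 26213 to 30304, that of 5 T and NK cell markers 1466 to 1975, 899 to 1319 and 2289 to 3654, and that of 5 monocyte and dendritic cell markers 6620 to 6718, 5017 to 6225 and 1795 to 3024. Markers of 1 list also moved apart. The neutrophil marker Csf3r had 3395, 1911 and 3389 after LPS and 1493, 945 and 890 at 300 mg/kg, where S100a8 went from 9727, 12710 and 10772 to 25299, 21942 and 21437. In the last list, Ccr2 went from 307, 195 and 402 after LPS to 1039, 919 and 722 at 300 mg/kg, and Cd209a from 5797, 4714 and 4755 to 1911, 1181 and 1049. The part of these other cells in the results was not tested, and in bulk samples fewer cells of a type and less RNA per cell cannot be told apart. Array 3 of the 300 mg/kg group stood apart, with the highest signal of that group for 16 of 16 interferon-linked genes. Changes of these genes at 300 mg/kg against LPS are given with and without it. For other genes and comparisons at that dose only some values without it are given, and none for the gene lists that follow the families.

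RefSeq promoter windows of build GRCm38.p6, from 250 bases before to 50 bases after a gene's start, were available for 40 of the 52 genes, 13 of them interferon-linked; Parp9, Parp14 and Trim14 are named only. The ISRE core was searched on both strands as GAAA, any 2 bases and GAAA again. It was found in 9 of the 13 interferon-linked windows (69.2%), in 2 of 27 windows of the others (7.41%; Trim2 and Parp4), and in 3.99% of all 27025 genes with a window. The interferon-gamma type element TTCNNNGAA had shares of 7.69%, 7.41% and 9.55% in the same order, and the NF-kB core (GGG, any 2 bases and TTTCC, both strands) 7.69%, 0% and 1.89%. These letters overlap in Parp11, where an ISRE core and a TTCNNNGAA match share bases. Of the genes below all but Trim5 fell at the highest SMD dose, as did Parp12 and Trim56, whose windows held no core. The following stretches are those with an ISRE core before the gene's start in an interferon-linked window, whatever the gene's change. Each is read 5′ to 3′ on the strand of its gene and ends at or before the gene's start, with the ISRE core in capitals. Cores that begin with TTTC are read from the opposite strand.
Parp11, chr6:127446766-127446835, plus strand: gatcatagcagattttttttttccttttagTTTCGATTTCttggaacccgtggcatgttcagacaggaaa
Trim12c, chr7:104353350-104353408, minus strand: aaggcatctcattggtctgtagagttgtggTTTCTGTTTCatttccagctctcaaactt
Trim5, chr7:104288116-104288185, minus strand: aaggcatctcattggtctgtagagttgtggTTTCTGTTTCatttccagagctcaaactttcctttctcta
Trim30a, chr7:104465194-104465259, minus strand: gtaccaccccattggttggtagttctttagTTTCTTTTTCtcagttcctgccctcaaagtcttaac
Trim30d, chr7:104507851-104507920, minus strand: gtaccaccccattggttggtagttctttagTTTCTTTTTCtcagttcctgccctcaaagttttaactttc
Trim26, chr17:36836956-36837031, plus strand: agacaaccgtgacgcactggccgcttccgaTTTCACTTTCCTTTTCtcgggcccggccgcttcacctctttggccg

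The Trim5 and Trim12c stretches matched at 57 of 59 bases and carried the same core, and those of Trim30a and Trim30d matched at 65 of 66 bases. In Trim21, Trim34a and Trim12a the core lay within the first bases of the transcript. Short sites of 30 bases are shown for these 3 genes, whose signals also fell at the highest dose.
Trim21, chr7:102565447-102565476, minus strand: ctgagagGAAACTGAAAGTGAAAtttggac
Trim34a, chr7:104244457-104244486, plus strand: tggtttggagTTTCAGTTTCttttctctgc
Trim12a, chr7:104315466-104315495, minus strand: agagttgtggTTTCTGTTTCatttccagag

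The Trim21 site holds 2 overlapping cores, as does the Trim26 stretch. No core was found in the windows of Parp12, Trim6, Trim25 or Trim56, which says only that these letters are not in those windows. A match is a description of the letters and not evidence of a bound site.

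The comparison of LPS with naive arrays asked how the families responded to the challenge alone. Statements here and below that arrays of the groups compared did not overlap describe those arrays only. How often this held over all probe sets was not counted. After LPS, 9 of 16 interferon-linked genes rose and 1 fell (limma, Benjamini-Hochberg adjusted p under 0.05 over 27022 probe sets), where 10.3% of all probe sets tested were called higher and 16.8% lower. Of the 36 other genes, 2 rose and 14 fell. The median log2 change was 1.07 for the interferon-linked genes, -0.72 for the others and -0.24 over all probe sets tested. Scaling each array to its median moved the last value to 0.18 and the calls to 11 and 1 of 16 and to 4 and 7 of 36, with medians of 1.49 and -0.29, so neither median changed sign.

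The largest rises were those of Parp12, Parp9, Trim30d and Parp14. Parp9, which works as a pair with the ubiquitin ligase Dtx3l, had signals of 1592 and 1550 on the naive arrays and of 10570, 10735 and 10513 after LPS. Parp12, a mono-ADP-ribosyltransferase with CCCH zinc fingers, went from 1991 and 2261 to 13977, 13793 and 15427. Parp14, a large enzyme with macrodomains that bind ADP-ribose, went from 2350 and 2280 to 14127, 15703 and 14334. In these 3 PARP genes the groups did not overlap, with log2 changes of 2.74 ± 0.33 (SE) for Parp9, 2.75 ± 0.35 for Parp12 and 2.66 ± 0.40 for Parp14 (limma, adjusted p = 5.97e-06, 1.17e-05 and 5.81e-05).

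Among TRIM genes, Trim30d rose by a log2 value of 2.71 ± 0.38, from 1954 and 1893 to 11289, 16159 and 11098. Trim30a, known as a brake on Toll-like receptor signalling, rose by 1.92 ± 0.34, from 5092 and 4590 to 16446, 22153 and 16828. Trim21, the cytosolic receptor for antibody-coated viruses, rose by 2.07 ± 0.42, from 1622 and 1606 to 6378, 7315 and 6880. Trim26, a RING ubiquitin ligase, rose by 1.17 ± 0.22, from 1095 and 1042 to 2415, 2070 and 2875, a call that rests on its brighter probe set (0.23 with adjusted p = 0.655, limma, when its 2 probe sets were averaged). In each of these 4 genes every LPS array was above both naive arrays.

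Smaller changes followed. Trim14, an adaptor of antiviral signalling at mitochondria, had signals of 1215 and 1524 in naive cells and 3111, 2016 and 3153 after LPS, and its change of 0.98 ± 0.36 was just past the threshold (limma, adjusted p = 0.0478). It lost its call without any 1 of 9 arrays, with adjusted p up to 0.271 without naive replicate 1. Trim25, the ubiquitin ligase of the RNA sensor RIG-I, went from 5264 and 5509 to 7375, 9016 and 7765, a change of 0.57 ± 0.14 that also missed the threshold without naive replicate 1 (0.54, adjusted p = 0.0625). The remaining changes did not pass the test: Trim6, at signals between 1.4 and 92.9 in both groups, had 1.15 ± 0.76, Parp11 0.81 ± 0.43, Trim56 0.44 ± 0.20, Trim12c 0.36 ± 0.36, Trim34a 0.35 ± 0.30 and Trim12a 0.25 ± 0.27. Trim12a, Trim12c and Trim6 overlapped between the groups.

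Trim5 went the opposite way. It is a mouse relative of the primate TRIM5 protein that restricts retroviruses. Its signals were 869 and 851 in naive cells and 131, 208 and 194 after LPS, a log2 change of -2.20 ± 0.28 (limma, adjusted p = 1.05e-05). Its neighbour Trim12c, whose promoter stretch above is nearly the same, had 1595 and 2191 against 2226, 3631 and 1728, which overlap.

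Outside the interferon-linked list, Trim13, a ubiquitin ligase of the endoplasmic reticulum, rose by 1.00 ± 0.24 and Trim27, a nuclear and cytosolic ubiquitin ligase, by 0.59 ± 0.15. Both lost the call without naive replicate 1 (0.74 and 0.58), and Trim27 also without naive replicate 2 (0.60). The 5 largest falls were those of Trim47 (-3.50 ± 0.74), Trim7 (-2.70 ± 0.56), Trim59 (-2.08 ± 0.36), Trim2 (-2.0 ± 0.62) and Trim68 (-1.71 ± 0.45). Trim47 had signals of 603 and 566 in naive cells and 108, 18 and 19.6 after LPS, and Trim7, known to bind glycogenin, had 354 and 495 against 10.5, 119 and 67.4. Trim59, a membrane-anchored TRIM, had 786 and 735 against 114, 283 and 144. In these 3 genes no LPS array reached the lower naive array. Trim68 lost its call without naive replicate 1 (-1.58) and Trim2 without either naive array (-1.91 and -2.09) or without LPS replicate 3 (-1.16).

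Of the 3 DNA-break PARP genes and the 3 nuclear TRIM genes of the Trim24 type, 2 each fell. Of all probe sets tested 16.8% were called lower, and of the 36 other genes 14, so these small counts do not set the 2 types apart. Parp1 had signals of 1698 and 1810 in naive cells and 780, 814 and 960 after LPS (-1.03 ± 0.20), and Parp2 had 2410 and 2929 against 1130, 1521 and 1018 (-1.13 ± 0.20). Parp3, also recruited to DNA breaks, had a change of -0.58 ± 0.24 that did not pass. Trim24, a chromatin reader and nuclear receptor co-regulator, had 1012 and 798 against 309, 372 and 279 (-1.45 ± 0.25). Trim33, its relative in TGF-beta signalling, had -0.70 ± 0.21, a call lost without either naive array or LPS replicate 3, with values of -0.59, -0.82 and -0.63. Trim28, the corepressor that silences endogenous retroviruses, had 3112 and 2899 against 4389, 3363 and 4166, a change of 0.39 ± 0.21 that did not pass (adjusted p = 0.182, limma). Further falls were those of Trim23 (-1.69 ± 0.35), Trim37 (-1.30 ± 0.28), Parp6 (-1.03 ± 0.37), Trim11 (-0.73 ± 0.27) and Trim41 (-0.68 ± 0.22). The last 3 were close to the threshold and were lost without either naive array, among other single arrays, with values of -1.27 and -0.79 for Parp6, -0.61 and -0.85 for Trim11 and -0.73 and -0.62 for Trim41. Without naive replicate 1, 7 of the 52 genes were called higher and 9 lower, in place of 11 and 15. Of the 36 others alone, 8 were then lower, and 9 without naive replicate 2 or LPS replicate 3, in place of 14. Under median scaling the falls of Parp1 (-0.61, adjusted p = 0.0553, limma), Trim2 (-1.57), Trim68 (-1.29), Parp6 (-0.60), Trim11 (-0.30), Trim33 (-0.27) and Trim41 (-0.25) missed the threshold, and Parp11 (1.24), Trim56 (0.87) and Trim28 (0.82) passed as rises.

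**Figure D1:**
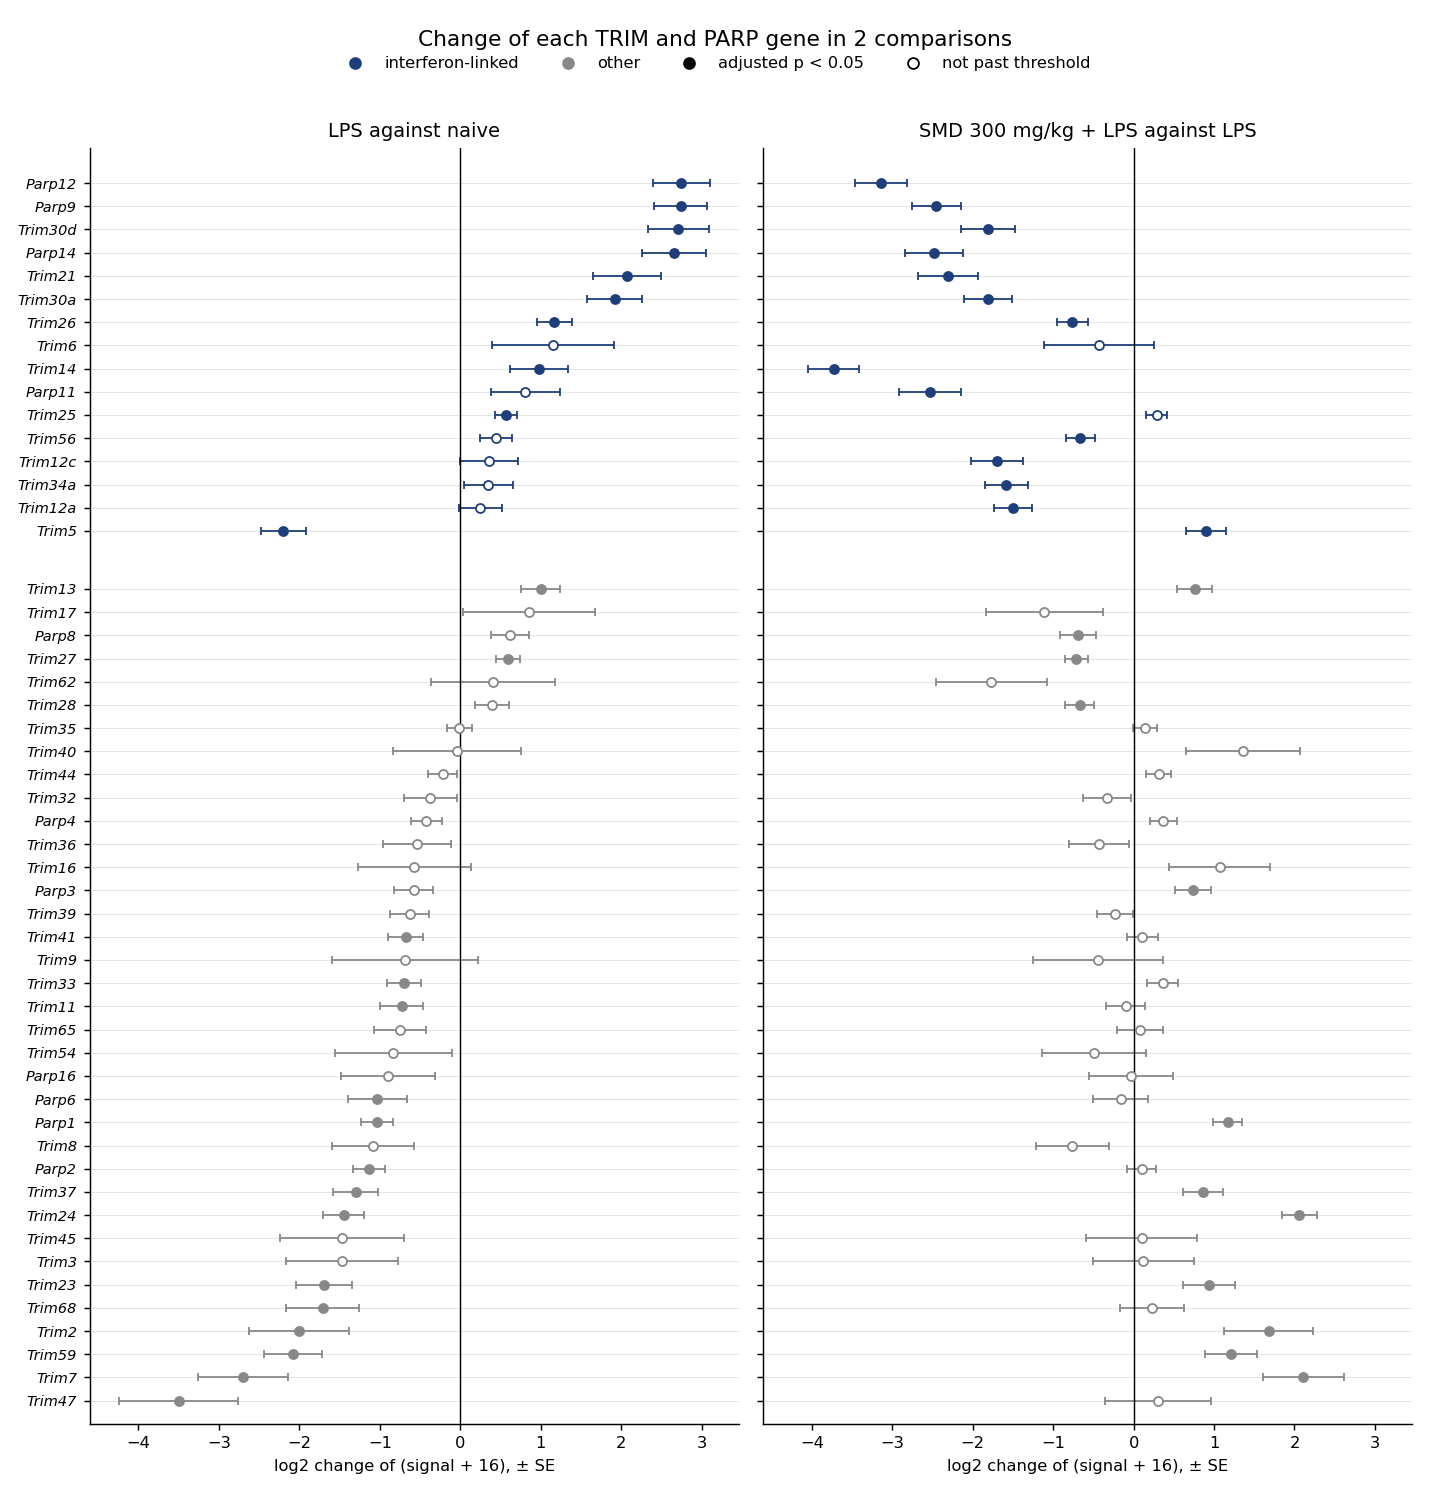
Log2 change of (signal + 16) with its standard error for the 52 genes, LPS against naive (2 and 3 arrays) at left and SMD 300 mg/kg with LPS against LPS (3 arrays each) at right. Blue points are interferon-linked genes and grey points the others, ordered by the left panel, and filled points passed the test. In the blue rows 9 points at left are filled above 0 and 13 at right are filled below 0. Both panels share the LPS arrays.

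At 100 mg/kg of SMD no TRIM or PARP gene passed the test against LPS alone. None of the 52 was called in either direction (limma, 0% of all probe sets called), 5 had an unadjusted p under 0.05, as had 2428 of the 27022 probe sets, and the smallest adjusted p among the 52 was 0.362. The interferon-linked median was 0.11, with Parp9 at 0.01 (95% interval -0.61 to 0.64), Parp14 at 0.08 (-0.67 to 0.82), Trim30a at 0.02 (-0.61 to 0.66), Trim21 at 0.33 (-0.46 to 1.11) and Trim14 at -0.35 (-1.02 to 0.32). Trim5 had 0.53 ± 0.25, not past the threshold, with signals of 258, 279 and 239. Of the other genes the changes with the smallest unadjusted p were Trim28 (-0.66 ± 0.18), Trim35 (-0.32 ± 0.15), Trim16 (1.57 ± 0.63) and Trim7 (1.14 ± 0.50). Trim28 had signals of 2360, 2115 and 3126. The Trim28 difference passed in 2 alternatives, with arrays weighted by their quality (-0.79, adjusted p = 0.0386, limma) and without 100 mg/kg replicate 3 (-0.82, adjusted p = 0.0338). Trim16 was dim, with signals of 2.8 to 57.3 after LPS and 72.7 to 125 at 100 mg/kg.

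At 200 mg/kg, 3 of the 16 interferon-linked genes fell and 2 rose, and of the other 36 genes 3 fell and 1 rose, where 6.39% of all probe sets were called lower and 6.68% higher (13.1% in either direction). The median was -0.28 for the interferon-linked genes, 0.19 for the others and -0.05 over all probe sets. With each array scaled to its median the 52 genes split into 6 higher and 2 lower in place of 3 and 6, and the medians became -0.13, 0.35 and 0.10, keeping their signs for both sets. With the actin ratio as a covariate a single gene, Trim24, was called. The share of all probe sets called in that fit is not given, so this count does not speak for these genes alone. Of the lost calls, Trim14 (-0.84), Trim28 (-0.32), Trim5 (0.69) and Trim25 (0.20) were then smaller, Parp12 (-1.44), Parp11 (-1.77) and Trim27 (-0.59) larger, and Trim65 had -0.90. Median scaling lost Parp12 (-0.98), Parp11 (-1.10), Trim27 (-0.34) and Trim65 (-0.75) and passed Parp1 (0.64).

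Trim14 showed the largest fall at this dose, to 1060, 884 and 1191 from 3111, 2016 and 3153, so the groups did not overlap (-1.37 ± 0.32, limma, adjusted p = 0.00958). Parp12 fell to 6094, 5951 and 7794 from 13977, 13793 and 15427 (-1.13 ± 0.32) and Parp11, a mono-ADP-ribosyltransferase of the nuclear envelope, to 309, 477 and 826 from 1109, 1226 and 1281 (-1.25 ± 0.38). The 3 calls were lost when single arrays were left out. Trim14 lost it without LPS replicate 1 (-1.27) or 3 (-1.26), and Parp12 without LPS replicate 1 (-1.15) or 3 (-1.08) or 200 mg/kg replicate 1 (-1.08) or 2 (-1.06). Parp11 lost it without any 1 of 8 arrays, its value then between -0.92 and -1.31, and without LPS replicate 1 no gene of the 52 was called lower. Unlike Parp12, 5 other genes with large rises after LPS did not pass the test at this dose: Parp9 had -0.25 (95% interval -0.88 to 0.37), Parp14 -0.30 (-1.05 to 0.45), Trim30a -0.24 (-0.87 to 0.39), Trim30d 0.00 (-0.70 to 0.71) and Trim21 -0.33 (-1.12 to 0.46), with overlapping arrays.

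The 2 interferon-linked rises at 200 mg/kg were those of Trim5 (0.94 ± 0.25), with signals of 353, 294 and 407, and Trim25 (0.40 ± 0.13). Trim5 lost the call without 200 mg/kg replicate 1 (0.93) or 3 (0.83) and without LPS replicate 1 (0.75), and Trim25 without any 1 of 11 arrays. Among the other genes, Trim24 rose to 961, 1349 and 927 from 309, 372 and 279 (1.69 ± 0.22, limma, adjusted p = 0.000305). It was the one call of this comparison that held with every single array left out, though the second Trim24 probe set was not called. Trim28 fell to 2155, 2442 and 2212 (-0.80 ± 0.18), lost only without LPS replicate 1 (-0.72, adjusted p = 0.0588). Trim27 fell by 0.49 and Trim65, a ubiquitin ligase of the RNA sensor MDA5, by 0.90 ± 0.29, both lost when single arrays were left out (LPS replicates 1 and 3 and 200 mg/kg replicates 1 and 2 for Trim27, any 1 of 12 arrays for Trim65), where the values ran from -0.45 to -0.50 for Trim27 and from -0.73 to -1.0 for Trim65. Parp1 had a change of 0.49 ± 0.18 that did not pass. The number of genes called ran from 1 to 6 higher and from 0 to 6 lower when each array was left out in turn: without LPS replicate 1 it was 1 and 0, without LPS replicate 2, 6 were higher, and without LPS replicate 3, 1 was lower. Without 200 mg/kg replicate 1 it was 1 and 2, without replicate 2, 2 were lower, and without replicate 3, 1 was higher.

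**Figure D2:**
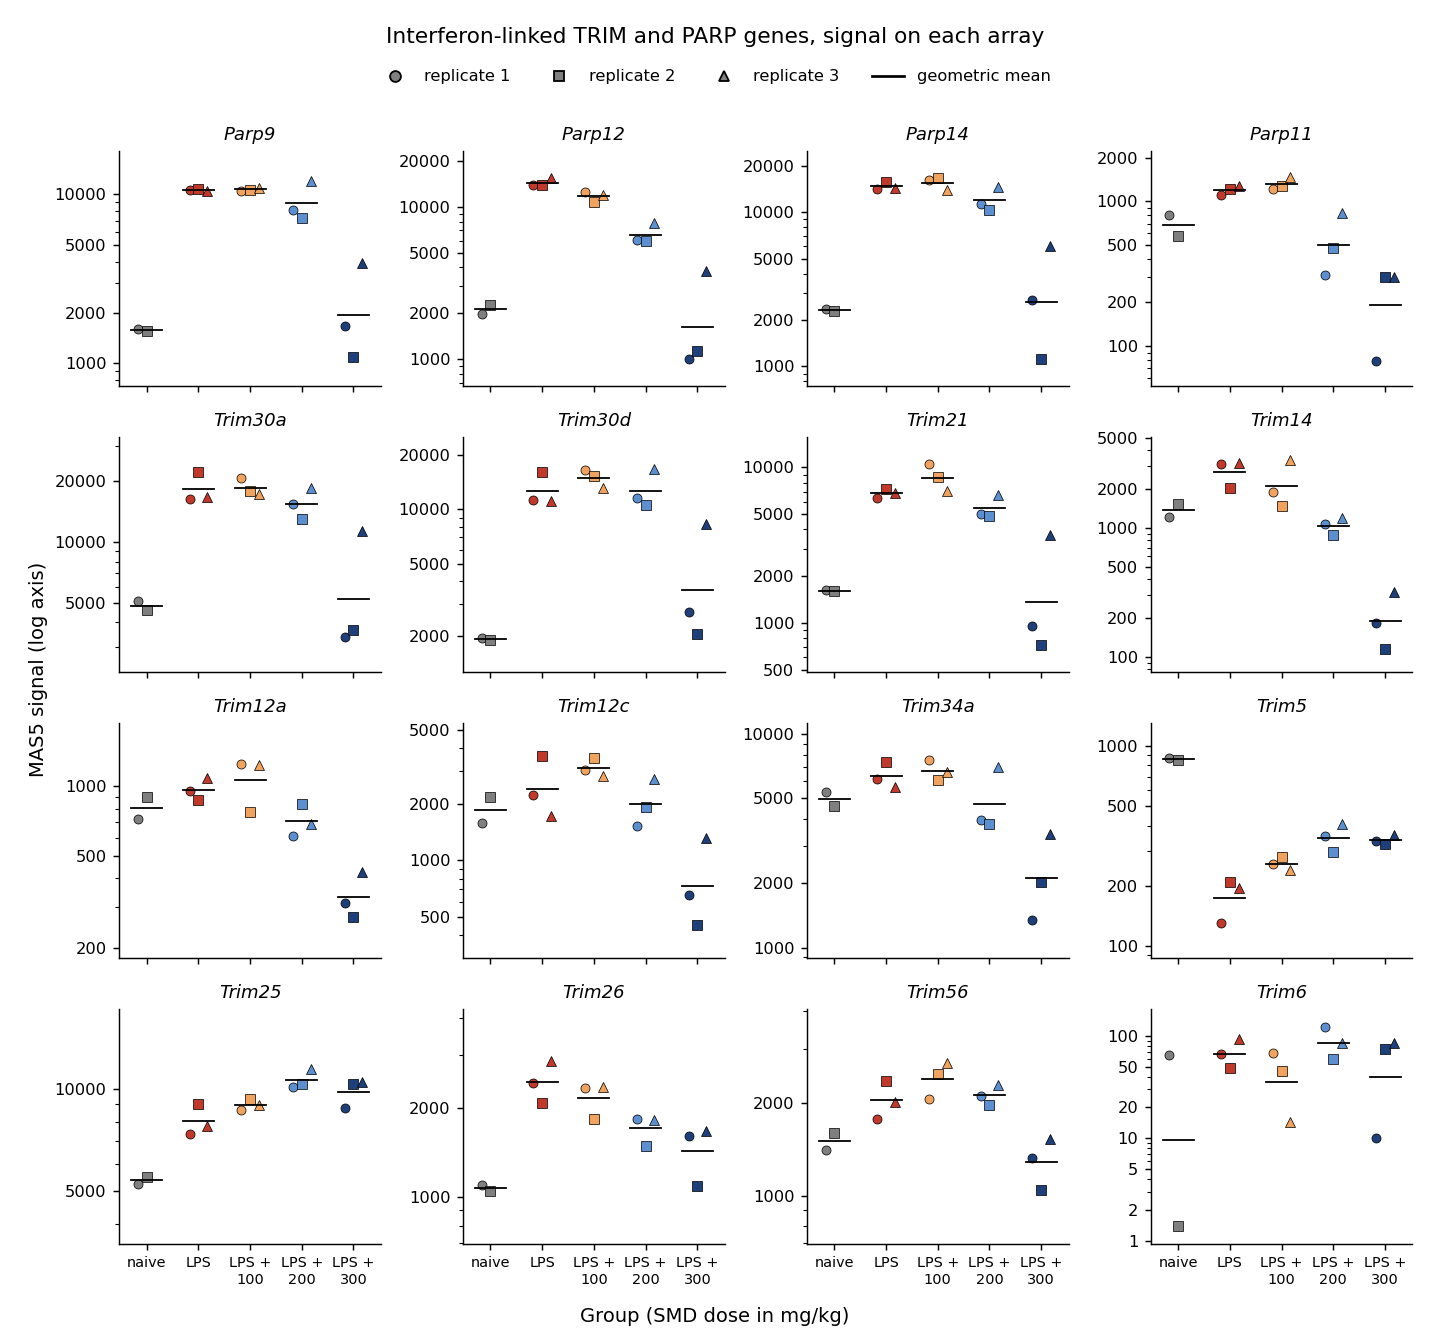
MAS5 signal (log axis) of the 16 interferon-linked genes on each of the 14 arrays, by group; symbols mark the replicate number and bars the geometric mean. Parp9, Parp12, Parp14, Trim30a, Trim30d and Trim21 are high on all LPS and 100 mg/kg arrays and lower on all 3 arrays at 300 mg/kg, where the triangle (replicate 3) is highest; Trim5 is highest in naive cells.

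At 300 mg/kg most interferon-linked genes were below their level after LPS alone, in a comparison that shares its LPS arrays with the one against naive cells. Of the 16, 13 fell and 1 rose, and of the other 36, 3 fell and 9 rose, where 13.7% of all probe sets were called lower and 13.8% higher (27.5% in either direction). The median log2 change was -1.76 for the interferon-linked genes, 0.11 for the others and -0.03 over all probe sets. Without array 3 of the group the counts were 13 and 1 of 16 with a median of -2.24, and 3 and 7 of 36. Median scaling and quantile normalization left 13 lower and 1 higher of the 16.

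Trim14 had the largest change. Its signals were 184, 114 and 319 at 300 mg/kg against 3111, 2016 and 3153 after LPS, a log2 change of -3.73 ± 0.32, 13.2-fold lower (limma, adjusted p = 5.09e-07), and -4.08 without array 3. All of its arrays at this dose lay below the naive ones (1215 and 1524). Parp12 fell to 994, 1136 and 3759 from 13977, 13793 and 15427 (-3.14 ± 0.32, adjusted p = 1.92e-06, limma), and -3.74 without array 3. Parp11 fell to 78.9, 299 and 301 from 1109, 1226 and 1281 (-2.53 ± 0.38), and -2.82 without array 3.

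Parp14 went from 14127, 15703 and 14334 to 2689, 1116 and 6043 (-2.48 ± 0.36), and Parp9 from 10570, 10735 and 10513 to 1664, 1099 and 3914 (-2.45 ± 0.30). Without array 3 their changes were -3.07 and -2.96. Trim21 went from 6378, 7315 and 6880 to 954, 723 and 3682 (-2.31 ± 0.37), and -3.02 without array 3. In these 3 genes arrays 1 and 2 were near or below the naive arrays, array 3 was above them, and all 3 arrays were below every LPS array.

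The neighbouring chromosome 7 genes other than Trim5 and Trim6 also fell. Trim30a fell to 3387, 3672 and 11282 (-1.81 ± 0.30) and Trim30d to 2713, 2046 and 8285 (-1.81 ± 0.34), with array 3 closest to the LPS arrays in both. Without array 3 their changes were -2.37 and -2.42. Trim12c fell to 653, 452 and 1319 (-1.70 ± 0.32), Trim34a to 1344, 2041 and 3424 (-1.58 ± 0.27) and Trim12a to 313, 272 and 427 (-1.50 ± 0.24). These last 3 had shown no rise past the threshold after LPS, and their arrays at 300 mg/kg were below both naive arrays. Without array 3 the values were -2.12, -1.93 and -1.67.

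Trim26 fell by 0.76 ± 0.19 on the log2 scale, to 1603, 1084 and 1662, and Trim56, a ubiquitin ligase of the cGAS and STING pathway, by 0.66 ± 0.18, to 1322, 1048 and 1531. Trim26 missed the threshold with the actin ratio as a covariate (-0.40, adjusted p = 0.380, limma), and Trim56 without 300 mg/kg replicate 2 (-0.52, adjusted p = 0.065). Trim5 rose to 334, 325 and 360 from 131, 208 and 194 (0.90 ± 0.25), and missed the threshold without LPS replicate 1 (0.71) and with the actin covariate (0.59). Trim25 had 0.29 ± 0.13 and Trim6 -0.43 ± 0.68, neither past the threshold. Without 300 mg/kg replicate 3, Trim26 had -0.87, Trim56 -0.79 and Trim5 0.86, all past the threshold. Trim25 (0.24) and Trim6 (-0.78) did not pass without it. With the actin covariate 12 of the 16 were called lower and 0 higher, with a median of -2.42. The share of all probe sets called in that fit is not given.

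**Figure D3:**
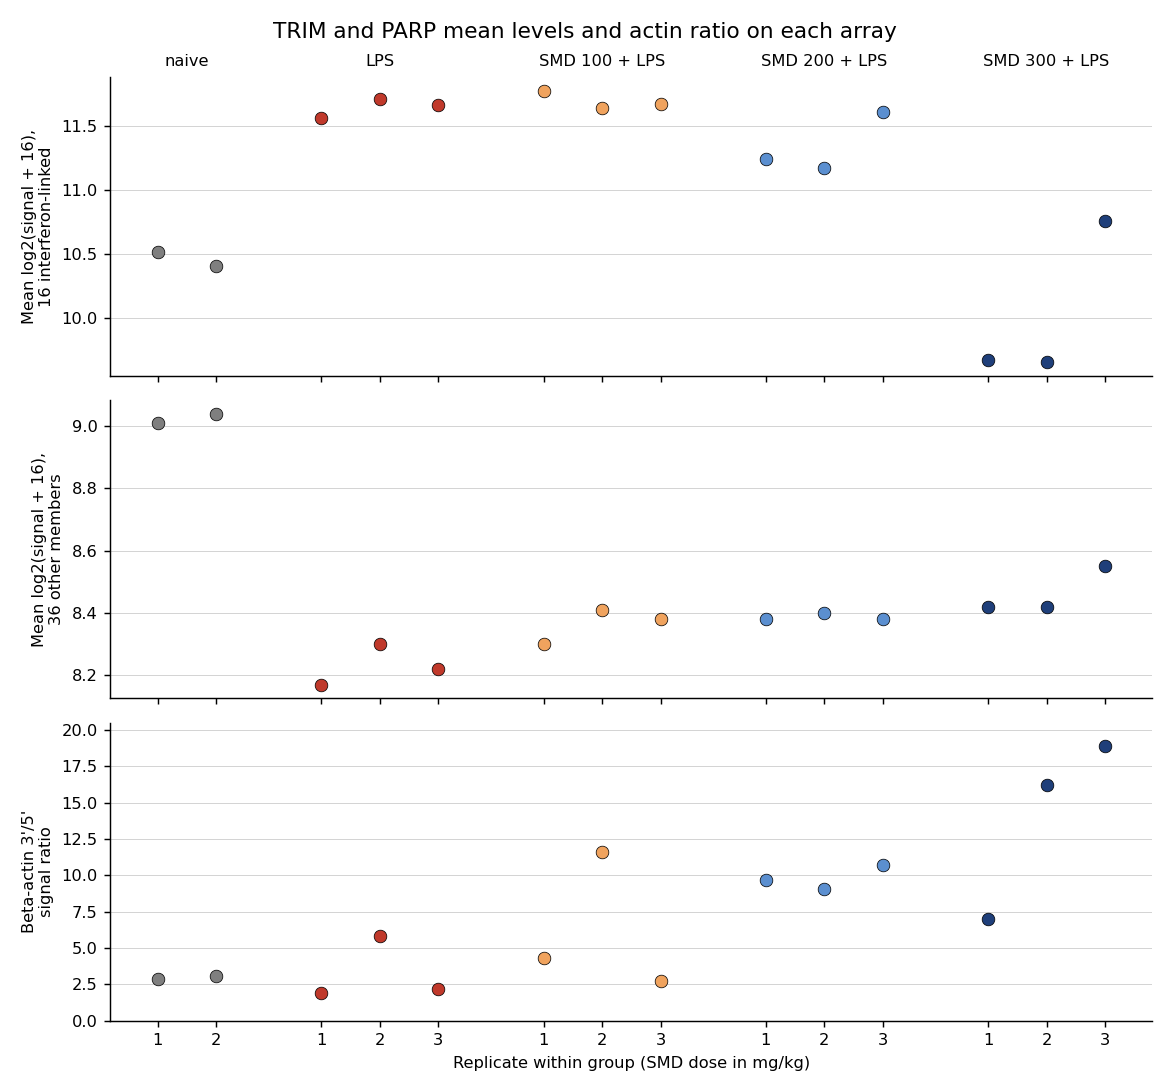
Mean of log2(signal + 16) over the 16 interferon-linked genes (top) and the 36 others (middle), and the beta-actin 3'/5' signal ratio (bottom), on each array. The interferon-linked mean is 10.52 and 10.41 in naive cells, 11.56 to 11.71 after LPS, and 9.68, 9.66 and 10.76 at 300 mg/kg, where array 3 also has the highest actin ratio, 18.9; the vertical axes of the first 2 panels do not start at 0.

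The mean over the 16 genes was 11.64 ± 0.08 (SD, n = 3) after LPS, 11.69 ± 0.07 at 100 mg/kg, 11.34 ± 0.24 at 200 mg/kg and 10.03 ± 0.63 at 300 mg/kg, against 10.46 ± 0.08 in naive cells (n = 2). The mean over the 36 others was 8.23 ± 0.07 after LPS and 8.46 ± 0.08 at 300 mg/kg, against 9.02 ± 0.02 in naive cells. At 200 mg/kg array 3 was again the highest of its group for 13 of the 16 genes, and for 12 of the 36 others.

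Of the other genes, Trim24 rose the furthest relative to its error at 300 mg/kg, to 1272, 1628 and 1251 from 309, 372 and 279 (2.06 ± 0.22, limma, adjusted p = 3.77e-06). All 3 arrays were above both naive arrays. Trim7 rose to 306, 270 and 243 from 10.5, 119 and 67.4 (2.11 ± 0.50). Parp1 rose to 1982, 2173 and 1655 from 780, 814 and 960 (1.17 ± 0.18, adjusted p = 8.43e-05, limma), with naive arrays at 1698 and 1810. This held for its brightest probe set only. Its 3 other probe sets were not called higher against LPS and were called below naive at this dose. Without 300 mg/kg replicate 3, Trim24 had 2.12, Trim7 2.18 and Parp1 1.28, all past the threshold. Parp2 had 1312, 1333 and 1247, a change of 0.10 ± 0.18 that did not pass, with values among those of the LPS arrays.

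The other rises were those of Trim2, Trim59, Trim23, Trim37, Trim13 and Parp3, by 1.68 ± 0.55, 1.21 ± 0.32, 0.94 ± 0.32, 0.86 ± 0.25, 0.76 ± 0.22 and 0.74 ± 0.22. The Trim2 arrays overlapped between the groups. Each of these 6 genes lost its call without at least 1 array. Without LPS replicate 1 this held for Trim2 (1.82), Trim59 (0.96), Trim23 (0.84) and Parp3 (0.50), without LPS replicate 3 for Trim2 (0.84), Trim23 (1.03), Trim37 (0.64) and Trim13 (0.58), and without 300 mg/kg replicate 2 for Trim2 (1.76), Trim59 (0.96), Trim23 (0.96), Trim37 (0.76) and Parp3 (0.66). Without 300 mg/kg replicate 3, Trim2 (1.41) and Trim23 (0.76) also missed the threshold. The number of the 52 genes called higher was 10, and 5, 6 and 5 without LPS replicate 1, LPS replicate 3 and 300 mg/kg replicate 2, of which 5, 5 and 4 were outside the interferon-linked list. It was 2 with the actin covariate, these being Trim24 (1.69) and Parp1 (1.11), while Trim7 had 1.09 with adjusted p = 0.360 (limma). Trim37 (0.96), Trim23 (0.70), Trim59 (0.66), Trim13 (0.60), Trim2 (0.32) and Parp3 (0.30) missed the threshold too.

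Trim27 fell to 3083, 4166 and 3925 from 6138, 5872 and 6171 (-0.71 ± 0.14), and held with every array left out and with the actin covariate (-0.82), but not with its 5 probe sets averaged (-0.24, adjusted p = 0.358, limma). Parp8, a mono-ADP-ribosyltransferase, fell to 358, 467 and 545 (-0.69 ± 0.22) and Trim28 to 3166, 2106 and 2268 (-0.67 ± 0.18). In both genes every array was below the LPS arrays. Trim28 missed the threshold without 300 mg/kg replicate 2 (-0.56), without the first LPS array (-0.59), and had -0.08 with the actin covariate. Parp8 missed it without LPS replicate 2 (-0.63) or 3 (-0.70) or 300 mg/kg replicate 1 (-0.53), with the covariate (-0.88), and under median scaling (-0.59). Without 300 mg/kg replicate 3, Trim27 had -0.75, Parp8 -0.82 and Trim28 -0.61, all past the threshold.

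**Figure D4:**
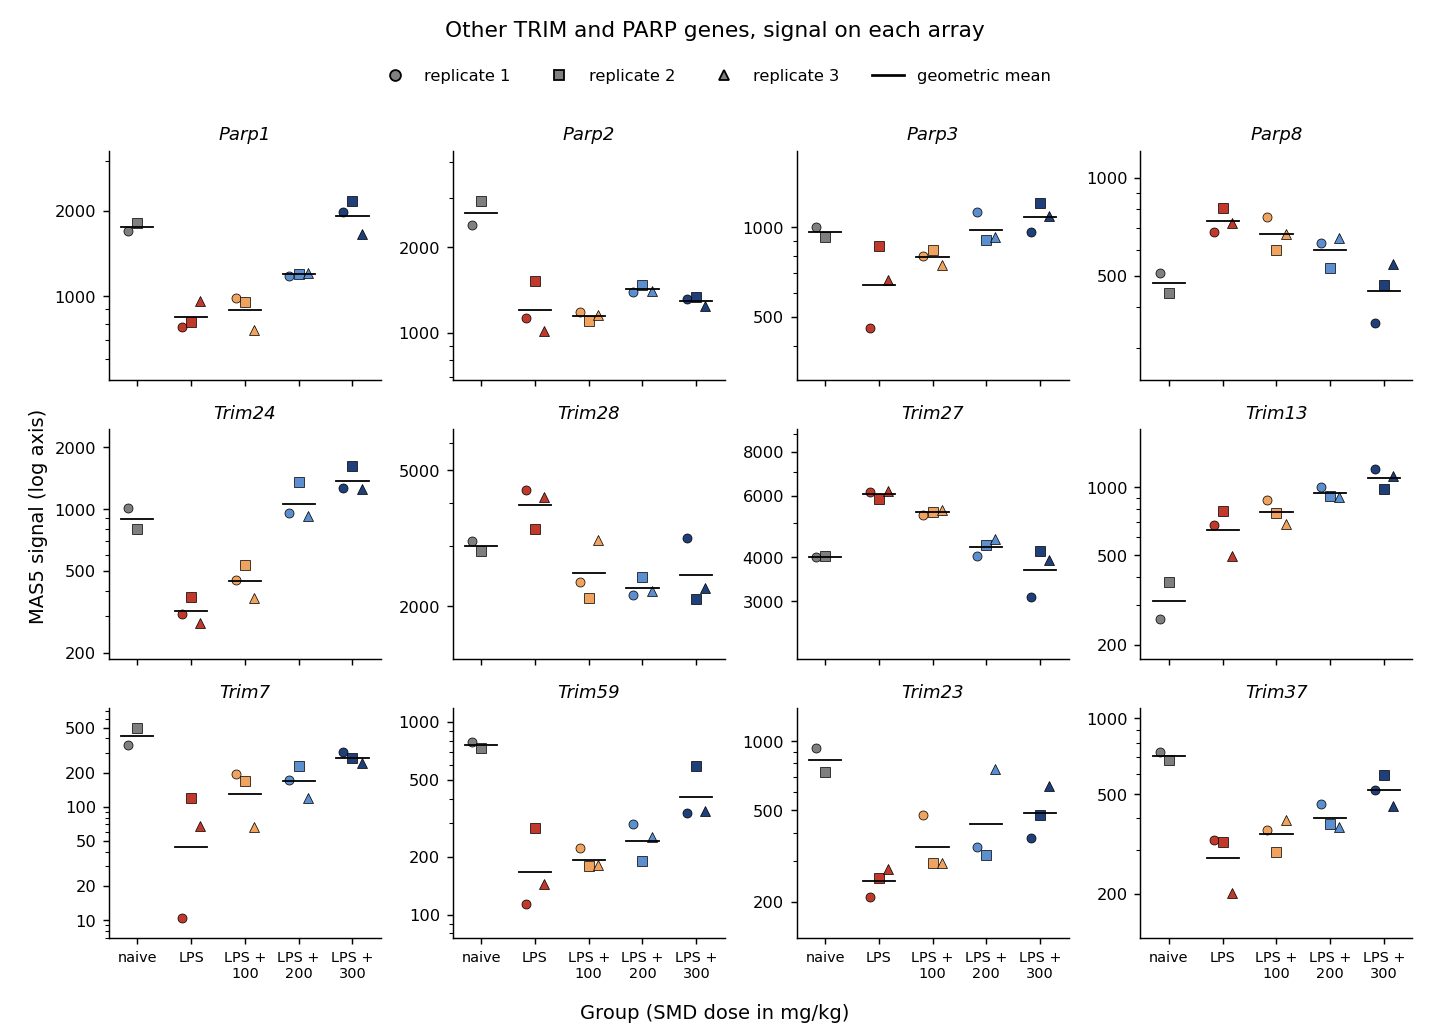
MAS5 signal (log axis) of 12 TRIM and PARP genes outside the interferon-linked list on each array, by group; symbols mark the replicate number and bars the geometric mean. Trim24 and Parp1 are low after LPS (279 to 372 and 780 to 960) and at 1251 to 1628 and 1655 to 2173 at 300 mg/kg, where Parp2 is at 1247 to 1333. Each gene is shown by its brightest probe set, and the 3 other Parp1 probe sets were called below naive at 300 mg/kg.

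The highest dose was also set against the middle dose and against naive cells, both chosen after seeing the data. Against 200 mg/kg, 11 of the 16 interferon-linked genes were lower and 0 higher at 300 mg/kg, and 1 of the 36 others was higher, where 3.05% of all probe sets were called lower and 2.02% higher (5.07% in either direction). The largest differences were those of Trim14 (-2.36 ± 0.32), Parp9 (-2.20 ± 0.30), Parp14 (-2.17 ± 0.36), Parp12 (-2.01 ± 0.32), Trim21 (-1.98 ± 0.37), Trim30d (-1.82 ± 0.34) and Trim30a (-1.57 ± 0.30). In these genes the doses did not overlap, and all but Trim30a kept the call with every array left out; Trim30a had -1.32 without 300 mg/kg replicate 2. Trim12c (-1.43), Trim34a (-1.16), Trim12a (-1.06) and Trim56 (-0.71) were also called. Without 300 mg/kg replicate 2 all 4 lost the call, at -1.09, -1.13, -0.92 and -0.57, and the count was 6 in place of 11. Without 200 mg/kg replicate 3 the same 4 lost it, at -1.22, -0.88, -1.08 and -0.66, and the count was 7. Parp11 had -1.28 ± 0.38 (limma, adjusted p = 0.0648). Without 300 mg/kg replicate 3 all 11 were called, as was Parp11 (-1.57), and the 7 largest differences were -2.71 for Trim14, -2.70 for Parp9, -2.77 for Parp14, -2.61 for Parp12, -2.69 for Trim21, -2.42 for Trim30d and -2.13 for Trim30a. Parp11 also passed with the actin covariate (-1.39). With a single variance prior only Trim14, Parp9, Parp14 and Parp12 stayed called as lower. Trim30d, Trim21 and Trim30a then missed the threshold (adjusted p = 0.0604, 0.0617 and 0.0663, limma). The rise of Parp1 (0.68 ± 0.18) was lost without any 1 of 6 arrays, at 0.59 without 300 mg/kg replicate 2, and under median scaling or quantile normalization.

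Against naive cells, 6 of the 16 were lower and 1 higher at 300 mg/kg, and 7 of the 36 others were lower and 1 higher, where 13% of all probe sets were called lower and 7.66% higher (20.6% in either direction). Below naive were Trim14 (-2.74 ± 0.36), Parp11 (-1.72 ± 0.43), Trim12c (-1.33 ± 0.36), Trim5 (-1.30 ± 0.28), Trim12a (-1.25 ± 0.27) and Trim34a (-1.23 ± 0.30). Trim25 was above (0.86 ± 0.14). Trim14 and Trim5 held with every array left out, and Trim5 missed the threshold under median scaling (-0.77), as did Trim34a (-0.70), Trim12c (-0.81), Trim12a (-0.72) and Parp11 (-1.19). Trim12a also missed it with the actin covariate (-0.90). Parp11 lost the call without naive replicate 1 (-1.49) and kept it, at a smaller value, without 300 mg/kg replicate 1 (-1.14). Trim34a lost it without naive replicate 1 (-1.13) and Trim12a without naive replicate 2 (-1.09). Trim12c lost it without naive replicate 2 (-1.11) or 300 mg/kg replicate 2 (-1.0). On their brightest probe sets the 6 genes that LPS raised most did not pass the test against naive cells. The second probe set of Parp14 was called above naive. Trim30d had 0.89 ± 0.38 (limma, adjusted p = 0.103), and passed under median scaling (1.42), with array weights (0.90) and without 300 mg/kg replicate 2 (1.30). Parp9 had 0.29 (95% interval -0.40 to 0.99), Parp14 0.18 (-0.65 to 1.02), Parp12 -0.38 (-1.13 to 0.36), Trim21 -0.24 (-1.11 to 0.64) and Trim30a 0.10 (-0.60 to 0.81), intervals that allow differences of about a log2 unit. Without 300 mg/kg replicate 3, Parp12 (-0.99, adjusted p = 0.00100) and Trim21 (-0.94, adjusted p = 0.00611, limma) were also below naive, which made 8 of the 16 lower. Without it the other values were 0.29 for Trim30d, -0.21 for Parp9, -0.41 for Parp14 and -0.45 for Trim30a, none past the threshold.

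Scaling moved these counts. With each array scaled to its median the interferon-linked median turned from -0.23 to 0.30, that of all probe sets from -0.27 to 0.26, and 8 of the 52 genes were higher and 3 lower in place of 2 and 13. Of the others, Trim13 was above naive (1.76 ± 0.24, limma, adjusted p = 6.01e-05). Trim47 (-3.19 ± 0.74), Trim8 (-1.85 ± 0.51), Trim68 (-1.49 ± 0.45), Parp6 (-1.19 ± 0.37) and Parp2 (-1.03 ± 0.20) had the largest falls. Parp2 alone of these 5 held with every array left out, and missed the threshold under median scaling (-0.50); the other 4 lost the call without either naive array (-3.15 and -3.24, -1.82 and -1.88, -1.35 and -1.62, -1.43 and -0.95), and Trim8, Trim68 and Parp6 without further arrays. With the actin covariate these 4 had -1.17 for Trim47, -0.23 for Trim8, -1.95 for Trim68 and -1.07 for Parp6, none past the threshold, nor was Trim11 (-0.44). Without naive replicate 1 or 2, 5 of the 52 were lower, 1 of them outside the interferon-linked list, without 300 mg/kg replicate 1 or 3, 4 outside that list were lower, and without 300 mg/kg replicate 2, 4 were higher.

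As a linear trend over the 12 arrays of LPS-challenged mice, 13 of 16 interferon-linked genes fell and 1 rose with SMD dose, and 3 of the 36 others fell and 9 rose, where 13.8% of all probe sets were called lower and 13.6% higher (27.4% in either direction). Per 100 mg/kg, Trim14 changed by -1.22 ± 0.14 on the log2 scale, Parp12 by -1.02 ± 0.13, Parp11 by -0.90 ± 0.14, Parp14 by -0.78 ± 0.16, Parp9 by -0.76 ± 0.15, Trim21 by -0.76 ± 0.17 and Trim24 by 0.74 ± 0.08. The doses at which they were called differed. Trim14, Parp12 and Parp11 were already lower at 200 mg/kg, while Parp9, Parp14, Trim30a, Trim30d and Trim21 passed against LPS at 300 mg/kg and not at 200 mg/kg, and in each the difference between these 2 doses passed too. For Trim30a, Trim30d and Trim21 this split held for the brighter of 2 probe sets only, and their difference between the doses missed the threshold with a single variance prior. Parp1 changed by 0.39 ± 0.07 and Trim28 by -0.22 ± 0.07 per 100 mg/kg. The Trim28 trend was lost without any 1 of 5 arrays, at -0.17 to -0.22, and its arrays at each of the 3 doses lay below every LPS array. Without 300 mg/kg replicate 3, 12 of the 16 fell and 1 rose. With the actin covariate the trends of Trim26 (-0.14), Trim56 (-0.31), Trim12a (-0.44), Trim5 (0.18), Trim28 (0.01), Parp8 (-0.30) and 7 of the rises among the others missed the threshold. Without LPS replicate 1, 6 of the 52 genes had a rising trend in place of 10, and without replicate 2 of LPS or of 300 mg/kg, 1 of the 36 others had a falling trend in place of 3.

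Probe sets of the same gene did not always move together. Trim25 has 3 tested probe sets. The 2 brightest changed by 0.57 and 0.50 after LPS and by 0.29 and 0.04 at 300 mg/kg against LPS, whereas the third (1426415_a_at) rose by 2.95 ± 0.32 after LPS (limma, adjusted p = 1.51e-06) and fell by 2.17 at 300 mg/kg (SE 0.28, adjusted p = 1.85e-05). Averaged over its probe sets Trim25 had -0.61 at 300 mg/kg (adjusted p = 0.00545, limma), the opposite sign to its brightest probe set. Of 4 Parp1 probe sets all fell after LPS, by 1.03, 1.10, 1.26 and 1.69, but only the brightest rose at 300 mg/kg. The others had -0.12, 0.14 and -0.08 against LPS, and all 3 were called below naive at that dose.

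In 3 interferon-linked genes the dimmer probe set was already lower at 200 mg/kg, where the brighter one did not pass. It had -1.53 ± 0.32 for Trim30a, -1.95 ± 0.42 for Trim30d and -1.15 ± 0.33 for Trim21 (limma, adjusted p = 0.00551, 0.00581 and 0.0273), against -0.24, 0.00 and -0.33. At 300 mg/kg the dimmer ones had -3.75, -4.79 and -2.63, against -1.81, -1.81 and -2.31. The dimmer Trim30a probe set was also below naive at 300 mg/kg (-1.19 ± 0.36). For Parp14 the second probe set went the other way and was called above naive at 300 mg/kg. It was called lower at 300 mg/kg against LPS, like the brighter one, but was not called in the dose trend. The second probe set of Trim26 had -0.72 ± 0.58 after LPS and -0.10 ± 0.52 at 300 mg/kg, and with both averaged its fall at 300 mg/kg missed the threshold (-0.43, adjusted p = 0.305, limma). With probe sets averaged Parp1 (0.28), Parp3 (0.40), Trim37 (0.47) and Trim59 (0.95) also lost their rise at 300 mg/kg.

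The second probe set of Parp11 (1444029_at) did not pass the test, with 0.31 after LPS and 0.13 at 300 mg/kg. For Trim2 another probe set fell by 1.33 at 300 mg/kg where the brightest rose, and for Trim27 1 of 5 (1441051_at) rose by 1.82 while 3 fell. Both probe sets of Trim24 rose at 300 mg/kg (2.06 and 1.20), and both of Trim28 fell (by 0.67 and 1.14). The second Trim24 probe set was called neither after LPS nor at 200 mg/kg. Which transcripts each probe set detects was not examined.

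**Figure D5:**
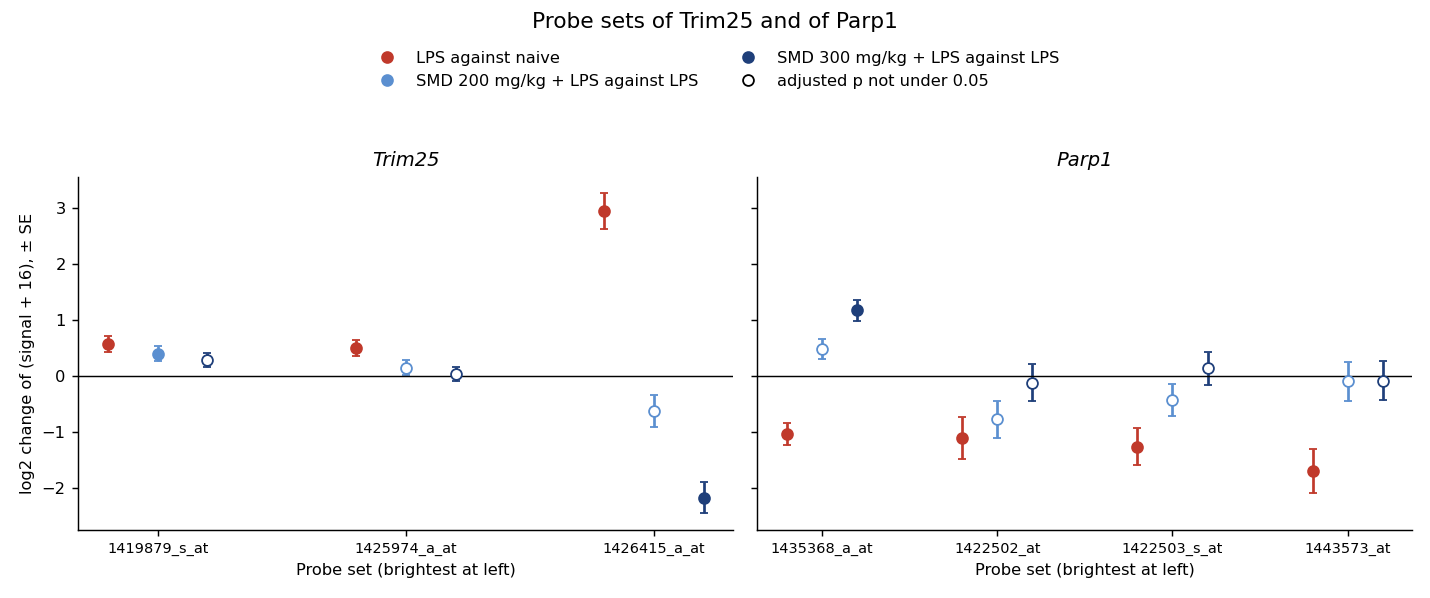
Log2 change of (signal + 16) with its standard error for each tested probe set of Trim25 (left, 3 probe sets) and Parp1 (right, 4), ordered by brightness, in 3 comparisons; open points did not pass the test. The third Trim25 probe set is at 2.95 after LPS and at -2.17 for 300 mg/kg, and only the first Parp1 probe set is above 0 and filled, at 1.17.

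Genes that carry the interferon signal were measured on the same arrays. Of 15 listed genes of that chain, 10 rose and 3 fell after LPS, 1 rose and 3 fell at 200 mg/kg, and 1 rose and 9 fell at 300 mg/kg against LPS. Of all probe sets, 10.3% rose and 16.8% fell after LPS, 6.68% and 6.39% at 200 mg/kg, and 13.8% and 13.7% at 300 mg/kg. Irf7, the factor that amplifies interferon production, had signals of 339 and 498 in naive cells, 6446, 2698 and 6514 after LPS, and 377, 126 and 706 at 300 mg/kg (3.51 ± 0.53 and then -3.83 ± 0.47). Stat2, part of the complex that binds the ISRE, had 342 and 322, then 1492, 1002 and 2087, then 228, 128 and 186 (2.09 ± 0.36 and -2.94 ± 0.32). The nucleic acid sensors Zbp1, Ddx58 and Ifih1 rose by 3.43 ± 0.36, 3.01 ± 0.34 and 3.55 ± 0.42 and fell at 300 mg/kg, with -3.01, -2.55 and -1.79. Irf9 (-1.93), Irf3 (-1.16), Jak1 (-1.10) and Irf1 (-0.93) fell at 300 mg/kg as well. Sting1, the adaptor of cytosolic DNA sensing, fell after LPS (-1.09) and rose at both 200 and 300 mg/kg (0.83 and 0.83). At 200 mg/kg Irf7 (-2.01), Zbp1 (-1.16) and Jak1 (-0.63) were lower. Array 3 of the 300 mg/kg group stood apart for Ifih1, with 6167, 3173 and 16048 against 19403, 28421 and 23898 after LPS. Alternative settings were not examined for these genes or for the lists that follow. Their values are therefore not given with the actin covariate or without that array.

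Of 8 family members with other symbols, 3 rose and 1 fell after LPS, 4 rose at 200 mg/kg, and 2 rose and 2 fell at 300 mg/kg, where the shares of all probe sets were 10.3% and 16.8% after LPS, 6.68% higher at 200 mg/kg, and 13.8% and 13.7% at 300 mg/kg. Pml, the TRIM protein of nuclear bodies, had 2664 and 2865 in naive cells, 7578, 8561 and 8617 after LPS and 1467, 1490 and 3242 at 300 mg/kg (1.57 ± 0.26 and -2.09 ± 0.23). Mefv, the inflammasome protein pyrin, rose by 2.70 ± 0.31 and fell by 1.13. Tiparp, a target of the aryl hydrocarbon receptor, had 2426 and 2094, then 9030, 10833 and 7165, and 19063, 17959 and 18724 at 300 mg/kg (1.97 ± 0.20 and then 1.06 ± 0.17), the opposite direction to the interferon-linked PARP genes at that dose. Tnks2, a tankyrase, fell after LPS (-0.53) and rose at 200 (0.66) and 300 mg/kg (0.59). At 200 mg/kg Mid1 (3.16 ± 0.96), Zc3hav1 (1.26 ± 0.31) and Tiparp (0.76 ± 0.17) rose too.

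Of 8 genes that read or remove ADP-ribose, 2 rose and 1 fell after LPS, 1 rose at 200 mg/kg, and 2 rose and 3 fell at 300 mg/kg. Set against the same shares of all probe sets, the 1 fall after LPS (16.8% of all) and the 1 rise at 200 mg/kg (6.68% of all) are near the background. Dtx3l, the partner of Parp9 and its neighbour on chromosome 16, had 1613 and 1794 in naive cells, 7259, 5928 and 6382 after LPS and 1652, 1254 and 3760 at 300 mg/kg (1.92 ± 0.31 and -1.70 ± 0.27). Adprm rose (0.57) and then fell (-0.76). Oard1, which removes ADP-ribose from glutamate, fell after LPS (-1.55 ± 0.36) and rose at 200 mg/kg (1.09 ± 0.32) and 300 mg/kg (1.59 ± 0.32). At 300 mg/kg Adprhl2, a hydrolase of serine ADP-ribose, had -1.61 ± 0.51 and Dtx3 0.87 ± 0.31, both called.

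The members nearest the filter were dim. Just inside it were Trim17 and Trim54 with a mean log2 of 5.65 and 5.69, and just outside it Trim46 with 5.61. The 17 genes below it (Trim10, Trim15, Trim29, Trim31, Trim42, Trim43a, Trim46, Trim60, Trim61, Trim63, Trim66, Trim67, Trim69, Trim71, Trim72, Trim75 and Trim80) had means of 4.63 to 5.61. Of the 52 genes above it, 26 were called in neither direction after LPS and 26 in neither at 300 mg/kg. Trim3, Trim6, Trim9, Trim16, Trim17, Trim40, Trim45, Trim54, Trim62 and Parp16 were called in neither comparison and had at least 1 array under a signal of 33.9, the level of the filter.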

How the data were processed

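Per the labels, total RNA of peritoneal cells was isolated with Trizol and labelled with biotin in a one-cycle protocol. The deposited intensity values are 1 linear signal per probe set, made by the authors with MAS5 per the submitters' processing notes (version not given in the sources used here). After trimming 2% at each end, the deposited signals of every array have a mean of 500, so changes are relative to the rest of the array. The number of arrays limits the precision.

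Of 45101 probe sets, 64 controls were left out and 34945 had 1 gene symbol, 932 several and 9160 none. Symbols were updated through Entrez identifiers. Values were transformed as log2(signal + 16), and the dimmest 40% left out (a mean under 5.64, a signal of about 33.9), which left 27022 probe sets. The pseudocount makes changes of dim genes smaller. A model with 1 mean per group over all 14 arrays was fitted with limma 3.58.1 under R 4.3.3, the variance prior following intensity. Two-sided p-values were adjusted by Benjamini-Hochberg across the 27022 probe sets, with calls at an adjusted p under 0.05. The dose trend was linear over 12 arrays. The fit was tested on simulated data.

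The groups came from the sample titles. Members and gene lists were chosen with earlier results of these data known. Named were all interferon-linked genes, the called others (up to 5 each way), Trim28 and Parp1, and called genes of 3 further lists. Other genes named in a comparison were chosen after their values were seen. Titles share replicate numbers, but deviations of same-numbered arrays correlated only weakly (-0.13 to 0.18), so no pairing was used. Alternatives were the pseudocount, the filter, the scaling, the arrays fitted, array weights, the variance prior, the mean of a gene's probe sets, a replicate block, the actin ratio as a covariate, and each array left out. Probe sets with several symbols were not used. Promoter sequences came from RefSeq sequences of build GRCm38.p6.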

Additional observations from a re-analysis of the deposited data

How the results depend on the processing

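Beside the settings reported above, 25 alternatives were run, 14 of them leaving out 1 array each. Of 114 called changes of named genes, 45 kept direction and call in every one of them, and 7 values that passed the threshold in one of the settings compared changed sign. With a gene's probe sets averaged, Trim25 turned to -0.02 at 200 mg/kg, -0.61 at 300 mg/kg and -0.20 in the dose trend, Trim2 to -0.06 at 300 mg/kg and -0.02 in the trend, and Parp1 to -0.99 for 300 mg/kg against naive. With the actin covariate Trim28 turned to 0.01 in the trend. The cause of these changes was not tested.

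Counts of the 52 genes moved by over 1.5 times in the following cases. The share of all probe sets called in each alternative is not given, so a moved count does not speak for these genes alone. Median scaling gave 8 lower after LPS, 6 higher and 2 lower at 200 mg/kg, 0 higher for 300 against 200 mg/kg, and 8 higher and 3 lower for 300 mg/kg against naive. Quantile normalization gave 0 higher for 300 against 200 mg/kg and 8 lower for 300 mg/kg against naive. Array weights gave 1 lower at 100 mg/kg, 7 higher at 200 mg/kg, 2 higher for 300 against 200 mg/kg and 4 higher for 300 mg/kg against naive. A single variance prior gave 1 lower at 200 mg/kg, and 0 higher and 4 lower for 300 against 200 mg/kg, and fitting only the groups compared 1 higher at 200 mg/kg. The mean of probe sets gave 5 higher at 300 mg/kg and 5 in the trend. The actin covariate gave 1 higher and 0 lower at 200 mg/kg, 2 higher at 300 mg/kg, for 300 against 200 mg/kg and in the trend, and 7 lower for 300 mg/kg against naive.

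With 1 array left out, higher and lower calls ran from 7 to 11 and 9 to 15 after LPS, 0 to 0 and 0 to 1 at 100 mg/kg (1 without its replicate 3), 1 to 6 and 0 to 6 at 200 mg/kg, 5 to 10 and 14 to 17 at 300 mg/kg, 0 to 2 and 6 to 12 for 300 against 200 mg/kg, 2 to 4 and 5 to 13 for 300 mg/kg against naive, and 6 to 11 and 13 to 16 in the trend.

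Deviations of same-numbered arrays of different groups had correlations of -0.13 to 0.18, with 4 of 26 over 0.1. For differently numbered arrays the correlations were -0.27 to 0.22, with 2 of 52 over 0.1. As all were weak, the numbers were not taken as a pairing. With the replicate block 11 genes were higher and 14 lower after LPS, 3 and 6 at 200 mg/kg, 10 and 16 at 300 mg/kg, 1 and 12 for 300 against 200 mg/kg, 3 and 13 for 300 mg/kg against naive, and 10 and 16 in the trend. With 2 or 3 arrays a group, dim genes had wide errors, such as an SE of 0.76 for Trim6 after LPS, which limits what could be called in them.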
